A study of Homo sapiens with 32 samples.

Results

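Interferon-stimulated genes were followed in 3 lines of Caco-2 cells, an established line from a human colon adenocarcinoma that serves as a model of the intestinal epithelium. The set held 49 genes, given as a list of symbols and matched to Ensembl identifiers in a table of 60107 genes, of which 30677 had at least 1 count. The list was chosen with earlier results of these data known. Shares of the set beside shares of all genes therefore describe the set and do not test it. Of the 49 genes, 48 had counts. RNA was sequenced from the unmodified parent cells (WT), from cells given inducible Cas9 and a CRISPR/Cas9 empty vector (e.v.), and from cl.21, which the labels call HIF1A-KO. Both e.v. and cl.21 went through lentiviral infection and selection with neomycin and puromycin, which WT cells did not. cl.21 is a single picked clone, so the clone and the loss of HIF1A cannot be told apart, and whether e.v. was a clone or a pool was not stated for the RNA samples. Each line was grown in wells (2D), in HoxBan monoculture and in HoxBan co-culture with Faecalibacterium prausnitzii. HoxBan is a tube in which cells on a coverslip lie upside down on an agar column for 18 h, with the anaerobic bacterium in the agar for co-culture and without it for monoculture. There were 4 WT libraries in 2D and 3 in each of the other 8 groups, and nothing in the labels says that these came from separate experiments, so p-values measure the spread between libraries, which may be technical. The series also held 4 single WT libraries that entered no test. They had stool with inulin medium, stool with mucin medium, inulin medium alone or mucin medium alone.

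Interferons are secreted proteins that cells release on sensing viral or bacterial nucleic acids. Type I and type III interferons act through the receptor kinases JAK1 and TYK2, which lead to a complex of transcription factors that includes STAT2 and IRF9. The complex occupies the interferon-stimulated response element (ISRE) in promoters. Type II interferon acts through another element, the gamma-activated site (GAS). The induced genes include enzymes that detect or cleave viral RNA, membrane proteins that hinder entry, the ubiquitin-like protein ISG15 with its conjugation enzymes, and the machinery that supplies peptides to MHC class I. In intestinal epithelium many of these genes are held at a low basal level and respond mainly to type III interferon.

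The 28 libraries of the 3 lines in 2D, monoculture and co-culture held 4144373 to 6686797 counts. All 12 enterocyte and Caco-2 markers had counts in the series, with a summed level of 3545 to 7738 CPM (counts scaled to a common library size with TMM factors), while 12 immune markers summed to 8.98 to 26.3 CPM with NKG7, FCGR3A and MS4A1 among those at 0, and 10 markers of fibroblasts and endothelium summed to 24.8 to 61.3 CPM. Of the immune markers 8 had counts, most in AIF1 (1069 in 32 libraries) and CD14 (974). All 10 markers of fibroblasts and endothelium had counts, most in COL1A1 (4771 in 32 libraries) and PDGFRB (1068). Mitochondrial genes took 4.49% to 23.6% of a library's counts. HIF1A, the edited gene, averaged 87.0 ± 3.95 CPM (SD, n = 3) in cl.21 and 161 ± 17.0 CPM (SD, n = 3) in e.v. in 2D (log2 fold change -0.89, SE 0.19, adjusted p = 0.00972). In HoxBan cl.21 averaged 176 ± 18.7 CPM (SD, n = 3) without bacteria and 171 ± 39.1 CPM (SD, n = 3) with them, so the transcript was still counted. The e.v. libraries read 188, 234 and 349 CPM without bacteria and 305, 276 and 245 with them. WT read 174, 169 and 212 CPM without bacteria and 159, 208 and 179 with them. The method reads tags at the 3′ end of transcripts and not the edit itself, so the level of HIF1A does not check the labels.

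Of the 49 genes, 38 passed the filter on low counts (edgeR's filterByExpr over 9 groups), among 12849 genes tested. OAS2, IFIT1, IFIT5, SAMD9, USP18, IFI16 and XAF1 passed only with the e.v. libraries, so for them a high level in e.v. was a condition of being tested. Counts and medians are therefore also given for the 31 genes that passed without e.v., and the counts and medians describe the set without testing it.

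The e.v. line stood apart in all 3 cultures. In 2D, 15 of the 38 genes rose in e.v. over WT at an adjusted p under 0.05 (edgeR quasi-likelihood test, Benjamini-Hochberg), against 0.809% of all genes tested, and none fell, with the lowest fitted change at -0.08. In monoculture 14 rose, against a background of 0.802%, and in co-culture 15, against 1.11%, and none was called lower (0.693% of all genes in co-culture). At an unadjusted p under 0.05 there were 27, 28 and 32 of the 38 genes, against 11.1%, 14.0% and 15.8% of all genes. The 38 hold the genes tested only through e.v. Among the 31 genes, 14, 11 and 12 were called, with median log2 fold changes of 0.88, 1.09 and 1.22, where the medians of all genes passing the same filter were -0.01, -0.02 and -0.03.

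cl.21 lay below e.v. and closer to WT by the medians of the set. In cl.21 against e.v., 4 of the 38 genes fell in 2D (background 0.467%), 11 in monoculture (0.576%) and 11 in co-culture (0.662%), and none rose (0.506% of all genes in co-culture). At an unadjusted p under 0.05 there were 20, 28 and 27 of the 38, against 8.73%, 10.4% and 10.8% of all genes. The 38 again hold the genes tested only through e.v. Among the 31 genes, 4, 10 and 10 fell, and the medians were -0.68, -0.98 and -1.05. These comparisons use the same e.v. libraries as e.v. against WT, so the directions are tied. In cl.21 against WT, 1 gene rose in 2D (TAP1, background 0.677%), and in monoculture 2 rose (IRF1 and PSMB9, 1.41%) and 1 fell (UBE2L6, 0.872%). In co-culture none was called in either direction in edgeR, with 5 of 38 (13.2%) at an unadjusted p under 0.05, near the 13.0% of all genes, and 2 called lower in DESeq2, and the background was 0.444% higher and 0.483% lower. At that unadjusted p there were 9 of 38 (23.7%) in 2D, above the 9.63% of all genes. In monoculture there were 6 (15.8%), near the 16.4% of all genes. The genes called in cl.21 against WT are all among the 31 genes, whose medians were 0.25, 0.27 and 0.17.

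**Figure D1:**
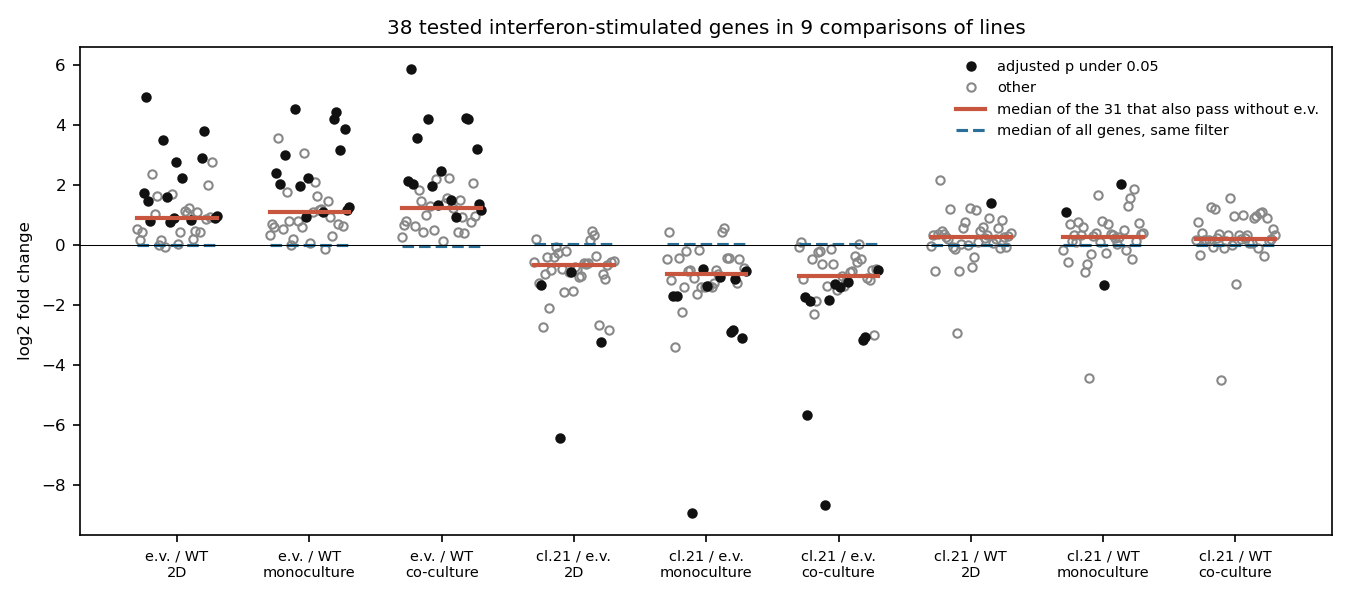
Log2 fold changes (vertical axis) of the 38 tested interferon-stimulated genes in 9 comparisons of lines (horizontal axis). Filled points passed an adjusted p under 0.05 and open points did not, the solid line is the median of the 31 genes that pass the filter without e.v., and the dashed line is the median of all genes under that filter. Medians lie between 0.88 and 1.22 for e.v. against WT, between -1.05 and -0.68 for cl.21 against e.v. and between 0.17 and 0.27 for cl.21 against WT. The lowest points belong to MX1, whose fitted value rests on 1 to 4 counts in a cl.21 group and is not a bound.

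The separation of libraries was also counted, with no test. In 2D all e.v. libraries lay above all libraries of the other lines for 23 of the 38 genes, where 3.32% of all genes did so. In monoculture this held for 20 genes (background 1.69%) and in co-culture for 18 (2.72%). Among the 31 genes the counts were 19, 15 and 15. Of the 38, 13 kept this separation in all 3 cultures, namely OAS1, OAS2, OAS3, IFIT1, MX1, IFITM3, PLSCR1, PARP9, DTX3L, IFI6, IFI27, XAF1 and LGALS3BP, where 0.444% of all genes (57) did. OAS2, IFIT1 and XAF1 were tested only through e.v., and 10 of the 31 genes were among the 13. No gene of the set had e.v. below both other lines, or WT or cl.21 above both, in any culture (in 2D 1.99% of all genes had WT above and 2.49% cl.21). All WT libraries lay below both engineered lines for 8 genes in 2D (background 2.17%), 4 in monoculture (2.78%) and 4 in co-culture (3.3%). cl.21 lay below both other lines for IRF7 and MX1 in 2D (background 2.54%), for MX1, UBE2L6 and IFI35 in monoculture (2.18%), and for MX1 and UBE2L6 in co-culture (1.98%).

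**Figure D2:**
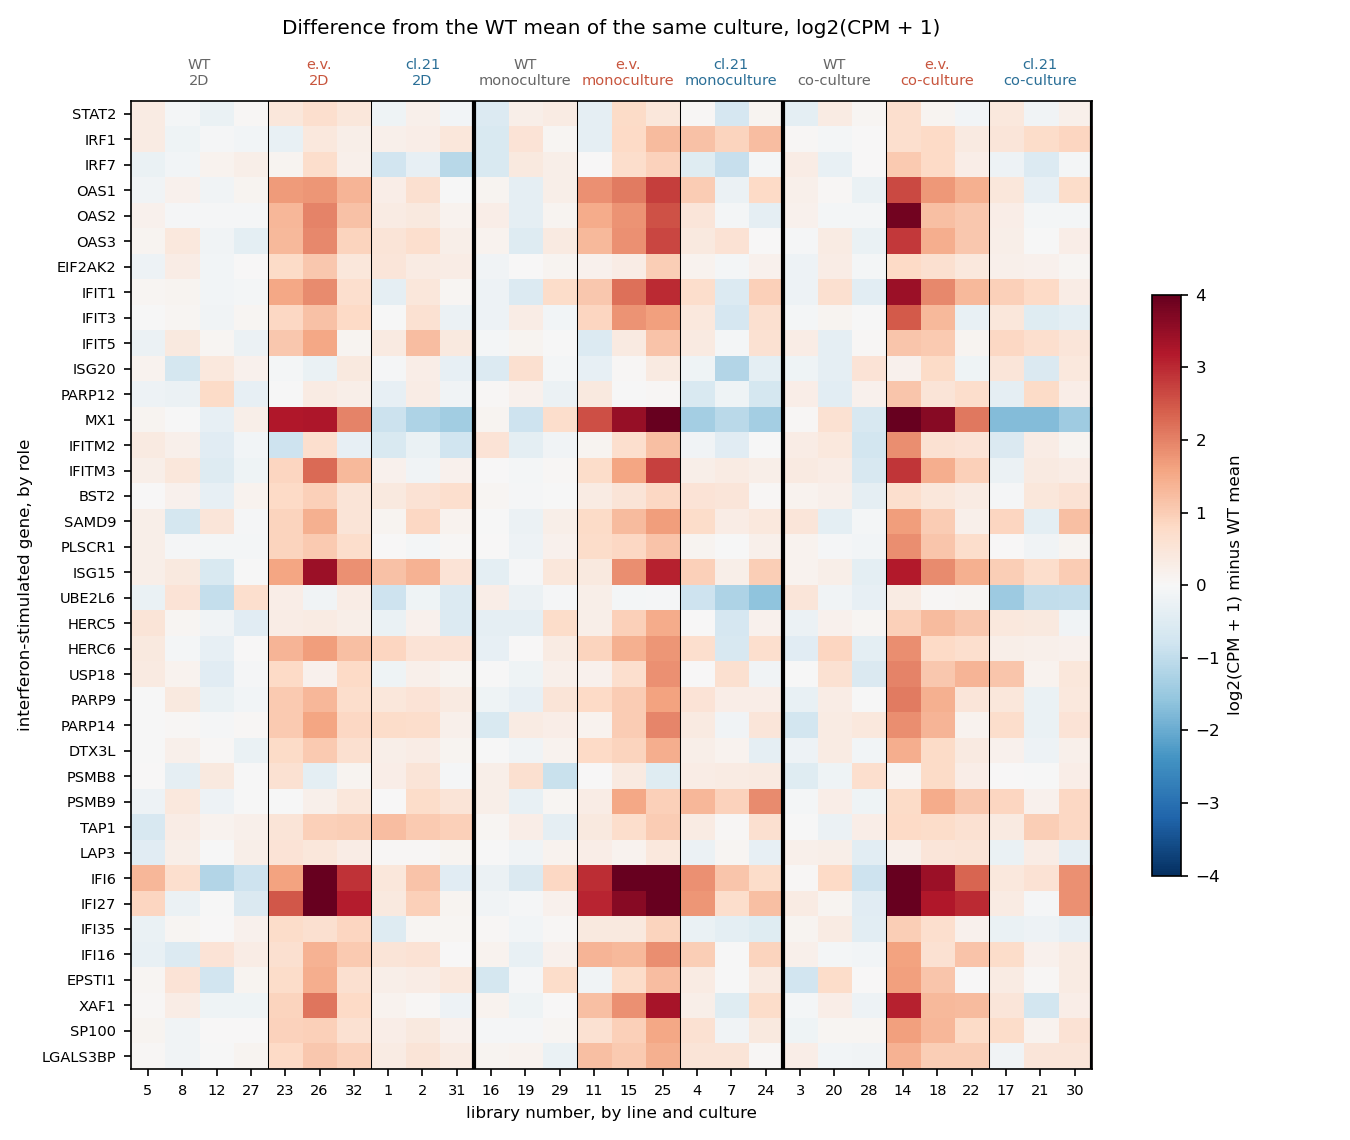
Each row is a tested interferon-stimulated gene and each column a library, named by its number and grouped by line and culture; the colour is log2(CPM + 1) minus the WT mean of the same culture, cut at 4 in either direction. Red fills the e.v. blocks for most rows, with its darkest columns at libraries 26, 25 and 14, while MX1 is blue in the cl.21 blocks and UBE2L6 in those of HoxBan.

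The values by role follow, with libraries always in ascending library number. For WT these are 5, 8, 12 and 27 in 2D, 16, 19 and 29 in monoculture and 3, 20 and 28 in co-culture. For e.v. they are 23, 26 and 32, then 11, 15 and 25, then 14, 18 and 22. For cl.21 they are 1, 2 and 31, then 4, 7 and 24, then 17, 21 and 30. Coordinates are those of GRCh38 with the GENCODE release 29 annotation. No source used here states whether reads were counted by strand, and overlapping genes may therefore share reads.

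The 2′-5′-oligoadenylate synthetases OAS1, OAS2 and OAS3 sense double-stranded RNA and activate RNase L. They lie side by side within 104947 bases of chromosome 12 (112906777 to 113011723). OAS1 (ENSG00000089127, chromosome 12, 112906777 to 112933222, plus strand) read 6.86, 8.73, 6.86 and 8.31 CPM in WT, 26.9, 28.7 and 21.1 in e.v. and 9.47, 12.6 and 7.59 in cl.21 in 2D. It read 7.65, 5.38 and 8.63 CPM in WT, 27.9, 33.5 and 53.6 in e.v. and 15.4, 5.87 and 13.1 in cl.21 in monoculture. Co-culture gave 11.0, 9.68 and 7.61 CPM in WT, 63.9, 33.1 and 26.9 in e.v. and 13.1, 7.28 and 16.2 in cl.21. The e.v. libraries lay above those of both other lines in each culture. The change of OAS1 in e.v. against WT passed in 2D (log2 fold change 1.73, SE 0.31, adjusted p = 0.00362), in monoculture (log2 fold change 2.40, SE 0.35, adjusted p = 0.000422) and in co-culture (log2 fold change 2.13, SE 0.34, adjusted p = 0.00148), and these 3 calls held without any single library. In cl.21 against e.v. OAS1 fell in all 3 cultures (log2 fold change -1.36, SE 0.33, adjusted p = 0.0347 in 2D, log2 fold change -1.72, SE 0.33, adjusted p = 0.00649 in monoculture and log2 fold change -1.76, SE 0.34, adjusted p = 0.0063 in co-culture). These calls were lost when any 1 was left out of 6 libraries in 2D (up to 0.205), without e.v. library 25 in monoculture (0.0561), and without e.v. library 14 (0.0844) or cl.21 library 21 (0.0576) in co-culture.

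OAS3 (ENSG00000111331, chromosome 12, 112938352 to 112973249, plus strand), the form that binds long double-stranded RNA, read 23.7, 29.4, 19.5 and 16.4 CPM in WT, 55.1, 85.4 and 40.7 in e.v. and 31.5, 35.2 and 25.7 in cl.21 in 2D. Monoculture gave 30.9, 19.4 and 36.1 CPM in WT, 69.3, 101 and 181 in e.v. and 37.3, 42.4 and 28.0 in cl.21. In co-culture OAS3 read 26.8, 35.2 and 23.1 CPM in WT, 206, 78.6 and 60.2 in e.v. and 32.7, 27.3 and 33.4 in cl.21. The e.v. libraries again lay above those of both other lines, and they spread widely, the highest library in co-culture (14) reading 3.42 times the lowest (22). OAS3 rose in e.v. over WT in 2D (log2 fold change 1.44, SE 0.34, adjusted p = 0.0305), monoculture (log2 fold change 2.02, SE 0.37, adjusted p = 0.00689) and co-culture (log2 fold change 2.02, SE 0.38, adjusted p = 0.00499), and fell in cl.21 against e.v. in monoculture (log2 fold change -1.71, SE 0.37, adjusted p = 0.0143) and co-culture (log2 fold change -1.88, SE 0.38, adjusted p = 0.00865). The calls against WT were lost when any 1 was left out of 5 libraries in 2D (up to 0.341) and 2 in monoculture (up to 0.0776). In co-culture the call against WT was lost without e.v. library 14 (0.0711). Those in cl.21 against e.v. were lost when any 1 was left out of 3 libraries in monoculture (up to 0.137) and 2 in co-culture (up to 0.142). OAS2 was scarce outside e.v. It read 0.185, 0, 0 and 0 CPM in WT, 1.65, 3.17 and 1.34 in e.v. and 0.306, 0.381 and 0.155 in cl.21 in 2D. In monoculture OAS2 read 0.546, 0 and 0.401 CPM in WT, 2.59, 3.47 and 6.49 in e.v. and 0.800, 0.226 and 0 in cl.21. In co-culture OAS2 read 0.203, 0 and 0 CPM in WT, 14.3, 1.43 and 1.26 in e.v. and 0.272, 0 and 0 in cl.21. It had 7 counts in all WT libraries, 166 in e.v. and 13 in cl.21. In 2D, 36 counts in e.v. against 1 in WT gave a ratio of 46.0 with a 95% counting interval of 7.75 to 1867, and in co-culture 74 against 1 gave 77.5 (13.5 to 3101). These intervals pool the libraries of a group and leave out the spread between them. In co-culture most of the e.v. counts came from library 14 (14.3 CPM against 1.43 and 1.26). OAS2 passed in 2D (adjusted p = 0.0306) and co-culture (0.00752) and not in monoculture (0.0534). The call in 2D was lost when any 1 was left out of 7 libraries (up to 0.228). The call in co-culture was lost without e.v. library 14 (0.118).

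IFIT1, which binds viral RNA lacking the host's cap methylation, read 0.742, 0.794, 0.556 and 0.579 CPM in WT, 3.84, 5.17 and 1.68 in e.v. and 0.306, 1.27 and 0.774 in cl.21 in 2D. Its values were 0.546, 0.234 and 2.01 CPM in WT, 2.79, 7.16 and 13.2 in e.v. and 1.92, 0.226 and 2.46 in cl.21 in monoculture. They were 0.406, 1.53 and 0.231 CPM in WT, 16.6, 5.24 and 3.01 in e.v. and 2.18, 1.82 and 1.01 in cl.21 in co-culture. All e.v. libraries of IFIT1 lay above the others in each culture. It rose in e.v. over WT in monoculture (log2 fold change 2.99, SE 0.72, adjusted p = 0.0363) and co-culture (log2 fold change 3.55, SE 0.78, adjusted p = 0.0172) and not by the threshold in 2D (log2 fold change 2.36, SE 0.71, adjusted p = 0.118). EIF2AK2, the kinase PKR that halts translation on sensing double-stranded RNA, was the most abundant of these genes at 116 to 299 CPM over all 28 libraries and rose in e.v. over WT in 2D (log2 fold change 0.78, SE 0.17, adjusted p = 0.0228). IFIT3, IFIT5, ISG20 and PARP12 passed no comparison of lines in the fit used here and ranged from 0.226 CPM (ISG20) to 22.2 CPM (IFIT3). The paper, by its own comparison, lists IFIT3 as lower in HIF1A-null than in control cells in co-culture. Of the 11 genes of this role, 9 were tested, and 4, 3 and 4 rose in e.v. over WT in 2D, monoculture and co-culture. OAS2 and IFIT1 supply some of these calls and, like IFIT5, were tested only through e.v. The backgrounds were 0.809%, 0.802% and 1.11% of all genes.

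MX1 (ENSG00000157601, chromosome 21, 41420304 to 41459214, plus strand), a dynamin-like GTPase that traps viral nucleocapsids, separated all 3 lines. It read 1.85, 1.59, 1.11 and 2.12 CPM in WT, 23.2, 24.0 and 9.39 in e.v. and 0.458, 0.127 and 0 in cl.21 in 2D. In monoculture the libraries read 1.82, 0.468 and 3.21 CPM in WT, 14.5, 28.2 and 86.5 in e.v. and 0, 0.226 and 0 in cl.21. In co-culture the libraries read 2.44, 4.08 and 1.15 CPM in WT, 83.0, 40.5 and 13.6 in e.v. and 0, 0 and 0.253 in cl.21. In each culture the 3 lines formed separate ranges, with e.v. highest and cl.21 lowest. MX1 rose in e.v. over WT in 2D (log2 fold change 3.48, SE 0.61, adjusted p = 0.00281), monoculture (log2 fold change 4.50, SE 0.68, adjusted p = 0.000557) and co-culture (log2 fold change 4.17, SE 0.66, adjusted p = 0.00137). The cl.21 libraries held 4 counts in 2D, 1 in monoculture and 1 in co-culture, against 327, 568 and 590 in e.v. With 1 count the ratio of e.v. to cl.21 was 664 in monoculture (95% counting interval 119 to 26260) and 537 in co-culture (96.0 to 21251). cl.21 against e.v. passed in 2D (adjusted p = 0.000143), monoculture (1.22e-05) and co-culture (4.35e-05), and all 6 of these MX1 calls held without any single library. With only the groups compared in the fit, MX1 did not pass in e.v. against WT in monoculture (0.0701). The ratio of WT to cl.21 was 30.3 in monoculture (5.01 to 1239) and 28.7 in co-culture (4.80 to 1167). By the test across libraries cl.21 against WT did not pass in 2D (adjusted p = 0.314), monoculture (0.14) or co-culture (0.19), although the libraries did not overlap. These counting intervals pool the libraries of a group, so they cover counting error only and not the spread between libraries. The reads also carried no molecular identifiers.

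IFITM3 (ENSG00000142089, chromosome 11, 319669 to 327537, minus strand), a membrane protein that hinders fusion of viruses in endosomes, read 23.0, 26.8, 13.5 and 17.4 CPM in WT, 36.2, 97.8 and 50.0 in e.v. and 22.3, 17.5 and 22.3 in cl.21 in 2D. Its monoculture values were 29.9, 28.1 and 30.7 CPM in WT, 49.6, 89.4 and 202 in e.v. and 35.2, 37.7 and 35.2 in cl.21. In co-culture they were 39.2, 37.5 and 19.4 CPM in WT, 228, 84.6 and 60.7 in e.v. and 25.9, 39.5 and 37.7 in cl.21. IFITM3 rose in e.v. over WT in each culture (log2 fold change 1.60, SE 0.40, adjusted p = 0.0431 in 2D, log2 fold change 1.95, SE 0.44, adjusted p = 0.0246 in monoculture, log2 fold change 1.96, SE 0.44, adjusted p = 0.0201 in co-culture), and cl.21 overlapped WT in 2D and co-culture and lay above it in monoculture. The call in 2D was lost when any 1 was left out of 12 libraries, at most at an adjusted p of 0.498 without e.v. library 26. PLSCR1 (ENSG00000188313, chromosome 3, 146515180 to 146544864, minus strand), a phospholipid scramblase that restricts virus entry, read 55.1, 45.4, 44.1 and 44.0 CPM in WT, 87.7, 98.9 and 77.3 in e.v. and 48.0, 44.6 and 48.3 in cl.21 in 2D. The monoculture libraries held 59.0, 50.1 and 65.4 CPM in WT, 96.4, 103 and 127 in e.v. and 62.4, 57.8 and 66.7 in cl.21. The co-culture libraries held 62.6, 55.0 and 52.1 CPM in WT, 206, 122 and 92.1 in e.v. and 56.6, 51.2 and 61.6 in cl.21. WT and cl.21 overlapped in each culture and e.v. lay above both. PLSCR1 rose by 0.90, 0.91 and 1.31 on the log2 scale in 2D, monoculture and co-culture, with SEs of 0.18, 0.20 and 0.20 (adjusted p = 0.0119, 0.0226 and 0.000893), and was lower in cl.21 than in e.v. in all 3 (adjusted p = 0.0143, 0.0349 and 0.000606). The call against WT was lost in 2D without e.v. library 26 (0.114). In monoculture it was lost when any 1 was left out of 4 libraries (up to 0.135). In cl.21 against e.v. the calls were lost likewise for 5 libraries in 2D (up to 0.111) and 5 in monoculture (up to 0.181). Both co-culture calls held without any single library. With only the groups compared, e.v. against WT did not pass in monoculture (0.186) or co-culture (0.0569), nor cl.21 against e.v. in monoculture (0.17).

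BST2, or tetherin, which holds budding virions on the cell surface, was already abundant in WT. It read 57.5, 64.5, 45.4 and 63.7 CPM in WT, 100.3, 111 and 81.7 in e.v. and 75.8, 85.6 and 91.7 in cl.21 in 2D. In monoculture its levels were 65.2, 58.9 and 60.4 CPM in WT, 77.9, 87.4 and 109.9 in e.v. and 89.8, 86.9 and 63.3 in cl.21. Co-culture gave 86.8, 90.7 and 60.0 CPM in WT, 126, 106 and 98.1 in e.v. and 74.6, 106 and 116 in cl.21. All e.v. libraries of BST2 lay above WT in each culture, and cl.21 overlapped e.v. in every culture. BST2 rose in e.v. over WT in 2D (log2 fold change 0.75, SE 0.18, adjusted p = 0.0285) and did not pass in monoculture (adjusted p = 0.148) or co-culture (0.211). Of the 12 genes of this role, 6 were tested. SAMD9 and IFITM2 passed no comparison of lines. MX2, IFITM1, RSAD2, CMPK2, SAMD9L and TRIM22 were too low to test, with 70, 55, 10, 46, 6 and 13 counts in 28 libraries. IFITM1 shares 351 exon bases with IFITM2 on the same strand, so reads could be split between them.

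ISG15 (ENSG00000187608, chromosome 1, 1001138 to 1014540, plus strand), a ubiquitin-like protein that is conjugated to viral and host proteins, read 4.08, 4.76, 1.85 and 3.28 CPM in WT, 11.9, 45.2 and 14.4 in e.v. and 8.71, 10.3 and 5.42 in cl.21 in 2D. In monoculture it read 7.83, 10.1 and 14.6 CPM in WT, 13.9, 40.4 and 95.6 in e.v. and 21.4, 12.6 and 21.8 in cl.21. In co-culture it read 12.6, 13.5 and 8.30 CPM in WT, 110.4, 44.8 and 32.1 in e.v. and 23.4, 19.0 and 23.8 in cl.21. All WT libraries lay below both engineered lines in 2D and co-culture. In monoculture the lowest e.v. library (11) fell among those of WT and cl.21. ISG15 rose in e.v. over WT in 2D (log2 fold change 2.75, SE 0.54, adjusted p = 0.0094), monoculture (log2 fold change 2.20, SE 0.54, adjusted p = 0.0382) and co-culture (log2 fold change 2.45, SE 0.54, adjusted p = 0.0176). In 2D the call was lost without library 26 (0.218), and in monoculture it did not pass without library 25 (0.442) or with the mitochondrial share as a covariate (0.061).

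UBE2L6 (ENSG00000156587, chromosome 11, 57551656 to 57568284, minus strand), the conjugating enzyme that loads ISG15 on its targets, had another pattern. It read 5.75, 10.8, 3.15 and 11.8 CPM in WT, 8.60, 6.34 and 8.89 in e.v. and 3.51, 6.10 and 4.49 in cl.21 in 2D. Monoculture gave 15.1, 10.5 and 12.0 CPM in WT, 14.9, 11.8 and 12.1 in e.v. and 6.56, 4.74 and 3.41 in cl.21. In co-culture its values were 17.7, 11.0 and 9.46 CPM in WT, 15.6, 12.6 and 13.1 in e.v. and 3.81, 5.72 and 5.83 in cl.21. WT and e.v. overlapped in each culture, and in HoxBan every cl.21 library lay below them. In cl.21 UBE2L6 fell in monoculture against WT (log2 fold change -1.34, SE 0.35, adjusted p = 0.0383) and against e.v. (log2 fold change -1.38, SE 0.35, adjusted p = 0.0459), and in co-culture against e.v. (log2 fold change -1.42, SE 0.36, adjusted p = 0.0497) while against WT it just missed the threshold (log2 fold change -1.31, SE 0.36, adjusted p = 0.0748). The calls against e.v. stood at the threshold and were lost when any 1 was left out of 19 libraries in monoculture and 22 in co-culture, and that against WT when any 1 was left out of the 6 libraries compared (adjusted p = 0.0631 to 0.244).

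The ligases HERC5 and HERC6 and the ISG15 protease USP18 were low. HERC6 read 1.30, 0.635, 0.371 and 0.773 CPM in WT, 3.48, 4.51 and 3.02 in e.v. and 2.14, 1.53 and 1.55 in cl.21 in 2D. It had 0.546, 0.936 and 1.40 CPM in WT, 2.59, 4.16 and 5.57 in e.v. and 2.08, 0.226 and 2.08 in cl.21 in monoculture. It had 0.610, 3.06 and 0.692 CPM in WT, 7.03, 2.86 and 2.51 in e.v. and 1.63, 1.56 and 1.52 in cl.21 in co-culture. HERC6 rose in e.v. over WT in 2D (log2 fold change 2.22, SE 0.53, adjusted p = 0.03). HERC5, the main ISG15 ligase in human cells, read 2.04, 1.27, 0.927 and 0.579 CPM in WT, 1.65, 1.67 and 1.51 in e.v. and 0.764, 1.40 and 0.464 in cl.21 in 2D. HERC5 in monoculture read 1.64, 1.64 and 4.61 CPM in WT, 2.99, 5.55 and 8.58 in e.v. and 2.40, 1.13 and 2.84 in cl.21. HERC5 in co-culture read 1.83, 2.80 and 2.54 CPM in WT, 5.44, 7.15 and 6.02 in e.v. and 3.54, 3.38 and 2.03 in cl.21. It passed no comparison of lines and rose in e.v. from 2D to monoculture (log2 fold change 1.81, SE 0.45, adjusted p = 0.00457). USP18, which also blocks the type I receptor, read 1.11, 0.794, 0.185 and 0.579 CPM in WT, 1.83, 0.834 and 1.84 in e.v. and 0.458, 0.890 and 0.774 in cl.21 in 2D. Its monoculture libraries read 0.910, 0.702 and 1.20 CPM in WT, 1.20, 2.08 and 5.80 in e.v. and 0.960, 2.03 and 0.758 in cl.21. Its co-culture libraries read 0.813, 1.78 and 0.231 CPM in WT, 6.35, 2.86 and 3.77 in e.v. and 2.99, 1.04 and 1.52 in cl.21. In co-culture USP18 just missed the threshold in e.v. against WT (log2 fold change 2.21, SE 0.60, adjusted p = 0.0553). Of the 5 genes of this role, all tested, 2, 1 and 1 rose in e.v. over WT in 2D, monoculture and co-culture (backgrounds 0.809%, 0.802% and 1.11%). USP18, not among these calls, was tested only through e.v.

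PARP9 and DTX3L, a pair of partners in a ubiquitin and ADP-ribose ligase, lie head to head on chromosome 3 with PARP14, and share 217 exon bases on opposite strands. DTX3L (ENSG00000163840, chromosome 3, 122564238 to 122575203, plus strand) read 39.9, 47.2, 42.3 and 33.8 CPM in WT, 69.5, 84.8 and 63.7 in e.v. and 47.5, 50.4 and 43.7 in cl.21 in 2D. It read 30.0, 27.4 and 33.9 CPM in WT, 53.0, 56.9 and 84.4 in e.v. and 35.7, 33.6 and 23.3 in cl.21 in monoculture. It read 27.2, 39.7 and 29.1 CPM in WT, 87.7, 53.8 and 40.7 in e.v. and 35.4, 27.6 and 36.7 in cl.21 in co-culture. DTX3L rose in e.v. over WT in 2D (log2 fold change 0.83, SE 0.21, adjusted p = 0.0441), monoculture (log2 fold change 1.09, SE 0.23, adjusted p = 0.02) and co-culture (log2 fold change 0.93, SE 0.23, adjusted p = 0.0372); the call in 2D was lost when any 1 was left out of 14 libraries, at most at 0.341 without library 26. PARP9 read 27.6, 36.5, 23.0 and 25.7 CPM in WT, 58.6, 71.7 and 46.1 in e.v. and 38.8, 40.9 and 35.9 in cl.21 in 2D. In monoculture PARP9 read 22.0, 19.4 and 35.5 CPM in WT, 43.8, 51.3 and 77.2 in e.v. and 36.6, 29.8 and 29.9 in cl.21. In co-culture PARP9 read 20.1, 30.3 and 24.7 CPM in WT, 108, 67.4 and 35.1 in e.v. and 34.0, 20.3 and 33.4 in cl.21. It rose in co-culture (log2 fold change 1.50, SE 0.31, adjusted p = 0.0104) and lay just outside the threshold in 2D (adjusted p = 0.0528) and monoculture (0.0569). PARP14, a mono-ADP-ribosyltransferase, read 35.4, 36.8, 34.8 and 36.9 CPM in WT, 75.0, 111 and 65.1 in e.v. and 59.9, 59.6 and 41.8 in cl.21 in 2D. Its values in monoculture were 25.3, 48.4 and 47.1 CPM in WT, 43.2, 78.6 and 154 in e.v. and 49.9, 35.2 and 54.0 in cl.21. Its values in co-culture were 22.1, 48.2 and 50.5 CPM in WT, 141, 97.9 and 41.7 in e.v. and 62.3, 31.5 and 55.5 in cl.21. PARP14 passed no comparison of lines in the fit used here (adjusted p = 0.109 to 0.145 for e.v. against WT), with the highest values in libraries 26, 25 and 14. The paper, by its own comparison, lists PARP14 as lower in HIF1A-null than in control cells in co-culture. PARP9, PLSCR1 and UBE2L6 are in the same list, which the paper gives as unique to co-culture. In the fit used here, cl.21 against e.v. also passed in 2D and monoculture for PLSCR1 and in monoculture for UBE2L6.

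Of the 4 genes that supply peptides to MHC class I, none passed in e.v. against WT in any culture in edgeR, and their median log2 fold changes were 0.43, 0.60 and 0.67 in 2D, monoculture and co-culture. TAP1 (ENSG00000168394, chromosome 6, 32845209 to 32853978, minus strand), a subunit of the peptide transporter, read 0.742, 2.38, 2.04 and 2.12 CPM in WT, 2.93, 4.34 and 4.36 in e.v. and 5.50, 4.70 and 4.34 in cl.21 in 2D. In monoculture TAP1 read 2.55, 3.04 and 1.60 CPM in WT, 3.39, 4.39 and 5.80 in e.v. and 3.20, 2.48 and 4.17 in cl.21. In co-culture TAP1 read 2.24, 1.78 and 3.00 CPM in WT, 4.76, 4.53 and 4.02 in e.v. and 3.27, 5.46 and 4.81 in cl.21. The e.v. libraries of TAP1 lay above WT in each culture. In 2D every cl.21 library lay above WT, and TAP1 rose in cl.21 over WT (log2 fold change 1.39, SE 0.31, adjusted p = 0.0147), a call lost without cl.21 library 1 (0.0925), cl.21 library 2 (0.0559) or WT library 5 (0.0623). PSMB9 (ENSG00000240065, chromosome 6, 32844136 to 32859585, plus strand), an immunoproteasome subunit, read 0.371, 1.11, 0.371 and 0.579 CPM in WT, 0.549, 0.834 and 1.17 in e.v. and 0.611, 1.65 and 1.24 in cl.21 in 2D. PSMB9 in monoculture read 1.46, 0.702 and 1.20 CPM in WT, 1.59, 5.08 and 3.02 in e.v. and 4.32, 2.93 and 6.82 in cl.21. PSMB9 in co-culture read 1.83, 2.55 and 1.61 CPM in WT, 4.08, 7.38 and 5.27 in e.v. and 4.36, 2.34 and 4.31 in cl.21. It rose in cl.21 over WT in monoculture (log2 fold change 2.03, SE 0.46, adjusted p = 0.0203), where all WT libraries lay lowest, and the call was lost without WT library 16 or 19 or cl.21 library 4 or 24 (0.0509 to 0.16). PSMB8, another subunit of the immunoproteasome, overlaps PSMB9 over 139 exon bases on the opposite strand. It read 2.78, 1.91, 3.89 and 2.70 CPM in WT, 4.76, 1.84 and 3.02 in e.v. and 3.51, 4.32 and 2.63 in cl.21 in 2D. PSMB8 in monoculture read 2.91, 4.21 and 0.802 CPM in WT, 2.39, 3.24 and 1.39 in e.v. and 3.04, 3.16 and 3.22 in cl.21. PSMB8 in co-culture read 1.22, 1.78 and 3.92 CPM in WT, 2.27, 4.29 and 2.76 in e.v. and 2.18, 2.08 and 2.79 in cl.21. PSMB8 passed no comparison of lines. LAP3, an aminopeptidase that trims peptides, read 21.7, 34.9, 29.5 and 35.3 CPM in WT, 43.9, 41.0 and 36.9 in e.v. and 31.0, 30.5 and 32.5 in cl.21 in 2D. LAP3 in monoculture read 32.4, 29.5 and 35.7 CPM in WT, 39.2, 36.1 and 43.4 in e.v. and 27.5, 34.1 and 25.4 in cl.21. LAP3 in co-culture read 42.9, 43.8 and 27.4 CPM in WT, 43.1, 52.9 and 53.2 in e.v. and 31.0, 46.3 and 28.9 in cl.21. LAP3 passed no comparison of lines, although all e.v. libraries lay above the others in 2D and monoculture.

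Among the transcription factors, IRF1 (ENSG00000125347, chromosome 5, 132481609 to 132490798, minus strand), which binds interferon response elements and is induced by type II interferon, passed in more comparisons of cultures than of lines. It read 10.6, 7.15, 7.79 and 7.53 CPM in WT, 6.41, 11.2 and 9.89 in e.v. and 9.63, 10.0 and 11.5 in cl.21 in 2D. In monoculture the libraries read 9.47, 22.0 and 15.6 CPM in WT, 11.4, 26.6 and 36.9 in e.v. and 35.0, 28.4 and 36.4 in cl.21. Co-culture gave 17.5, 16.1 and 17.1 CPM in WT, 27.4, 30.2 and 21.8 in e.v. and 24.0, 28.6 and 31.7 in cl.21. From 2D to monoculture IRF1 rose in WT (log2 fold change 0.92, SE 0.29, adjusted p = 0.0329), in e.v. (log2 fold change 1.44, SE 0.31, adjusted p = 0.00134) and in cl.21 (log2 fold change 1.69, SE 0.30, adjusted p = 0.000215). In cl.21 against WT it rose in monoculture (log2 fold change 1.10, SE 0.29, adjusted p = 0.0467), a call at the threshold that was lost when any 1 was left out of 17 libraries (up to 0.245). IRF1 overlaps the antisense gene C5orf56 over 1716 exon bases, which held 334 counts in all 32 libraries. STAT2, a part of the complex that binds the ISRE, read 21.3, 16.0, 13.9 and 17.4 CPM in WT, 23.4, 27.5 and 23.5 in e.v. and 14.8, 19.6 and 15.6 in cl.21 in 2D. STAT2 in monoculture read 11.7, 20.6 and 22.3 CPM in WT, 13.3, 30.3 and 24.1 in e.v. and 18.2, 10.6 and 19.1 in cl.21. STAT2 in co-culture read 11.8, 19.9 and 16.6 CPM in WT, 25.4, 17.1 and 14.6 in e.v. and 21.5, 14.0 and 18.2 in cl.21. It passed no comparison of lines, the adjusted p ranging from 0.464 to 0.748 in e.v. against WT. IRF7, the factor that amplifies interferon alpha production, read 3.89, 4.45, 5.38 and 5.79 CPM in WT, 5.31, 8.51 and 5.70 in e.v. and 2.44, 3.69 and 1.70 in cl.21 in 2D. IRF7 in monoculture read 4.19, 9.36 and 8.23 CPM in WT, 6.97, 11.8 and 13.9 in e.v. and 4.64, 3.16 and 6.44 in cl.21. IRF7 in co-culture read 7.72, 4.84 and 6.23 CPM in WT, 13.8, 11.4 and 7.53 in e.v. and 5.17, 3.90 and 5.83 in cl.21. In 2D all cl.21 libraries lay below the others, without passing the test against e.v. (log2 fold change -1.29, SE 0.35, adjusted p = 0.0834) or WT (log2 fold change -0.87, SE 0.34, adjusted p = 0.314). IRF9, which completes the complex, had 29 counts in 28 libraries.

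**Figure D3:**
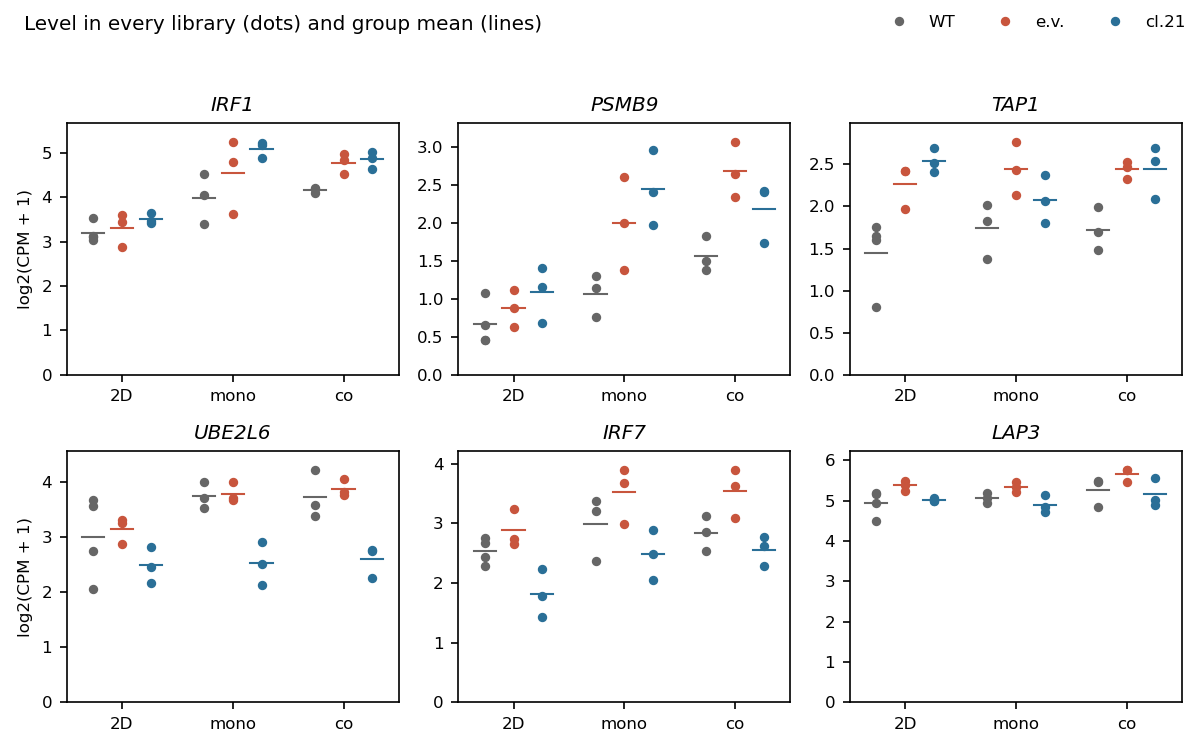
Levels as log2(CPM + 1) (vertical axis) of IRF1, PSMB9, TAP1, UBE2L6, IRF7 and LAP3 in 2D, monoculture (mono) and co-culture (co); dots are libraries and lines are group means. IRF1 and PSMB9 lie higher in monoculture than in 2D in each line by their means, TAP1 is lowest in WT in 2D, and UBE2L6 is lowest in cl.21 in both HoxBan cultures.

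The remaining genes included large changes. IFI6 (ENSG00000126709, chromosome 1, 27666061 to 27672218, minus strand), a protein of the mitochondria and endoplasmic reticulum that counters apoptosis, read 22.8, 14.1, 3.15 and 4.25 CPM in WT, 27.6, 149 and 68.7 in e.v. and 11.9, 19.7 and 5.88 in cl.21 in 2D. The monoculture libraries held 5.64, 4.21 and 12.8 CPM in WT, 59.6, 129 and 225 in e.v. and 26.9, 16.0 and 11.9 in cl.21. In co-culture the libraries read 8.33, 14.8 and 4.15 CPM in WT, 356, 96.0 and 45.2 in e.v. and 11.2, 12.7 and 31.2 in cl.21. IFI6 rose in e.v. over WT in 2D (log2 fold change 2.87, SE 0.67, adjusted p = 0.028), monoculture (log2 fold change 4.18, SE 0.79, adjusted p = 0.00887) and co-culture (log2 fold change 4.20, SE 0.79, adjusted p = 0.0053). These calls were lost when any 1 was left out of 5 libraries in 2D (up to 0.322) and 3 in monoculture (up to 0.0717). In co-culture the call was lost without e.v. library 14 (0.0608). Within e.v. the libraries of IFI6 ranged from 27.6 to 149 CPM in 2D and from 45.2 to 356 CPM in co-culture. IFI27 (ENSG00000165949, chromosome 14, 94104836 to 94116698, plus strand), a small hydrophobic protein of the same family, read 5.93, 2.22, 2.78 and 1.55 CPM in WT, 20.3, 76.3 and 33.0 in e.v. and 3.97, 6.48 and 3.10 in cl.21 in 2D. In monoculture IFI27 read 2.55, 2.81 and 3.41 CPM in WT, 31.3, 47.8 and 109.7 in e.v. and 12.2, 5.42 and 7.95 in cl.21. In co-culture IFI27 read 4.67, 3.82 and 2.31 CPM in WT, 122, 40.7 and 34.4 in e.v. and 4.63, 3.38 and 14.9 in cl.21. It rose in e.v. over WT in 2D (log2 fold change 3.79, SE 0.56, adjusted p = 0.000337), monoculture (log2 fold change 4.42, SE 0.64, adjusted p = 0.000422) and co-culture (log2 fold change 4.17, SE 0.63, adjusted p = 0.000893), calls that held without any single library, and fell in cl.21 against e.v. in each culture (log2 fold changes -3.23, -2.86 and -3.09). The call in cl.21 against e.v. was lost in monoculture without e.v. library 25 (0.069) and in co-culture without e.v. library 14 (0.068) or cl.21 library 17 (0.0513).

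LGALS3BP (ENSG00000108679, chromosome 17, 78971238 to 78980109, minus strand), a secreted glycoprotein that binds galectins, read 31.9, 27.8, 31.0 and 33.8 CPM in WT, 54.2, 66.4 and 60.2 in e.v. and 39.1, 44.6 and 39.5 in cl.21 in 2D. In monoculture LGALS3BP read 30.6, 31.3 and 23.5 CPM in WT, 66.5, 59.6 and 77.0 in e.v. and 40.6, 40.9 and 29.2 in cl.21. In co-culture LGALS3BP read 37.8, 28.8 and 28.6 CPM in WT, 84.6, 63.6 and 63.3 in e.v. and 28.3, 44.5 and 44.6 in cl.21. Its change was small and its spread narrow. It rose in e.v. over WT in 2D (log2 fold change 0.95, SE 0.17, adjusted p = 0.00316), monoculture (log2 fold change 1.25, SE 0.19, adjusted p = 0.000557) and co-culture (log2 fold change 1.15, SE 0.19, adjusted p = 0.00151), again without dependence on a single library. With only the groups compared in the fit, LGALS3BP did not pass in monoculture (0.0633). SP100 (ENSG00000067066, chromosome 2, 230415942 to 230544090, plus strand), a component of PML nuclear bodies, read 14.5, 11.9, 13.3 and 13.3 CPM in WT, 26.0, 26.7 and 20.8 in e.v. and 16.0, 17.7 and 14.9 in cl.21 in 2D. In monoculture SP100 read 14.2, 14.0 and 15.4 CPM in WT, 22.5, 29.1 and 44.8 in e.v. and 22.7, 13.1 and 19.5 in cl.21. In co-culture SP100 read 13.2, 15.8 and 15.9 CPM in WT, 48.5, 39.1 and 26.1 in e.v. and 25.6, 16.6 and 22.5 in cl.21. SP100 rose in e.v. over WT in each culture (adjusted p = 0.0417, 0.0186 and 0.00404), and in co-culture the call held without any single library. XAF1, a promoter of apoptosis, rose in e.v. over WT in monoculture (log2 fold change 3.85, SE 0.85, adjusted p = 0.0237) and co-culture (log2 fold change 3.19, SE 0.80, adjusted p = 0.036), and IFI16, a DNA sensor, in monoculture (log2 fold change 3.15, SE 0.75, adjusted p = 0.0354). IFI35 fell in cl.21 against e.v. in monoculture (log2 fold change -1.16, SE 0.29, adjusted p = 0.0408), a call lost in DESeq2 (0.0558). EPSTI1 passed no comparison of lines. IFI44 had no counts and IFI44L 9 in 28 libraries. Of the other genes too low to test, OASL had 32 counts and IFIT2 120. Of the 10 genes of this group, 8 were tested, and 4, 6 and 5 rose in e.v. over WT (backgrounds 0.809%, 0.802% and 1.11%). XAF1 and IFI16 supply some of these calls and were tested only through e.v.

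The promoters of genes called in all 3 cultures were read because the ISRE is the element through which interferon acts on these genes. RefSeq windows of 250 bases before to 50 after the start site (GRCh38.p14) existed for 41 of the 49 genes. The ISRE was searched on both strands as GAAA, any 2 bases and GAAA, which reads TTTC, any 2 bases and TTTC on the other strand. It occurred in 28 of the 41 (68.3%) and in 4.38% of all 27305 genes with windows, and the GAS, searched as TTC, any 3 bases and GAA, in 13 (31.7%) and 9.38%. Of the 11 genes called in e.v. over WT in all 3 cultures, 9 had an ISRE match, and OAS1 and SP100 had none in this window. Of 7 genes with windows called in 1 or 2 cultures 4 had one, and of 16 tested genes with windows that passed in no culture, 11. The matches are descriptions of letters, not of binding. For 8 of these 9 genes, 40 bases around it are printed from 5′ to 3′ on the strand of the gene with the matching letters in capitals, and IRF1 is printed for its GAS letters, since it did not pass in e.v. against WT and had no ISRE match.
OAS3 (ISRE, chr12:112938434-112938473, plus strand, 40 to 1 bases before the start): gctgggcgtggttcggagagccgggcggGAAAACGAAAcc
MX1 (ISRE, chr21:41431839-41431878, plus strand, 211 to 172 bases before the start): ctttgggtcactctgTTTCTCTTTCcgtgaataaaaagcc
IFITM3 (ISRE, chr11:320871-320910, minus strand, 50 to 11 bases before the start): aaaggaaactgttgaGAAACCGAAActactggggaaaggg
PLSCR1 (ISRE, chr3:146544662-146544701, minus strand, 94 to 55 bases before the start): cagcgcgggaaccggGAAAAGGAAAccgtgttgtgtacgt
ISG15 (ISRE, chr1:1013375-1013414, plus strand, 122 to 83 bases before the start): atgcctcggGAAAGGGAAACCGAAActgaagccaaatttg
IFI6 (ISRE, chr1:27672261-27672300, minus strand, 108 to 69 bases before the start): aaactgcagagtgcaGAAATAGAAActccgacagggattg
IFI27 (ISRE, chr14:94110626-94110665, plus strand, 110 to 71 bases before the start): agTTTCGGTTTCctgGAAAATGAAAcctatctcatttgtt
LGALS3BP (ISRE, chr17:78979957-78979996, minus strand, 73 to 34 bases before the start): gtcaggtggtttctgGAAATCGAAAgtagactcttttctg
IRF1 (GAS, chr5:132490874-132490913, minus strand, 140 to 101 bases before the start): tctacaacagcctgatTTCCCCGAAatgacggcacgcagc
The stretches of ISG15 and IFI27 hold more than 1 match, which in ISG15 overlap.

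The spread of replicates was compared between lines. Over 22 genes with a mean of at least 5 CPM, the median SD of log2(CPM + 1) within e.v. was 0.32 in 2D, 0.49 in monoculture and 0.61 in co-culture, where the medians of all genes at that level were 0.15, 0.28 and 0.22. In WT the medians were 0.24, 0.28 and 0.31 and in cl.21 0.20, 0.31 and 0.30. The median ratio of the highest to the lowest library of a group was 1.56, 2.03 and 2.31 in e.v., 1.51, 1.58 and 1.56 in WT and 1.27, 1.53 and 1.53 in cl.21. For a single gene it reached 5.40, 6.85 and 8.85 in e.v. and 7.24, 6.86 and 3.56 in WT. The order of e.v. libraries was shared across genes. In 2D library 26 was highest for 24 of the 31 genes, in monoculture library 25 for 25 and in co-culture library 14 for 25, while library 11 was lowest for 25 genes in monoculture and library 22 for 25 in co-culture. Libraries 26, 25 and 14 were highest for 36.1%, 36.9% and 40.6% of all genes tested. Shares of all genes were not counted for the lowest library. Relative to the WT mean, the median log2 ratio over the 31 genes was 0.77, 1.05 and 0.65 in e.v. libraries 23, 26 and 32, 0.39, 0.89 and 1.25 in libraries 11, 15 and 25, and 1.45, 0.99 and 0.55 in libraries 14, 18 and 22. All 9 lay above the highest cl.21 library, at 0.33, and the highest WT library, at 0.23.

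The mitochondrial share of counts ran with this order within e.v. It was 5.79%, 17.1% and 5.58% in libraries 23, 26 and 32, 8.52%, 13.8% and 23.3% in libraries 11, 15 and 25, and 19.6%, 14.9% and 10.5% in libraries 14, 18 and 22. In WT the share of library 12 was 14.1% with the lowest median of 2D at -0.14, and in co-culture libraries 20 and 28 had 18.5% and 20.4% with the highest and lowest medians at 0.23 and -0.12. With the share as a covariate 17, 12 and 20 genes rose in e.v. over WT, and 6, 11 and 18 fell in cl.21 against e.v., so more genes passed in 2D and co-culture and fewer or as many in monoculture. The part of the share in the spread was not tested. Without its highest library, e.v. over WT gave 4 genes in 2D (without 26), 4 in monoculture (without 25) and 6 in co-culture (without 14), and without library 11 it gave 22 in monoculture. cl.21 against e.v. gave 2 genes in 2D without library 26, 1 in monoculture without library 25 and 2 in co-culture without library 14. The shares of all genes called with the covariate or without a library are not given here. Whether these changes in count are particular to the set was therefore not tested. OAS1, LGALS3BP, MX1 and IFI27 passed in e.v. over WT in all cultures whichever library was left out. Of the calls, 4 of 15 in 2D, 4 of 14 in monoculture and 6 of 15 in co-culture held in this way. With only the groups compared in the fit, LGALS3BP (adjusted p = 0.0633) and MX1 (0.0701) did not pass in monoculture.

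**Figure D4:**
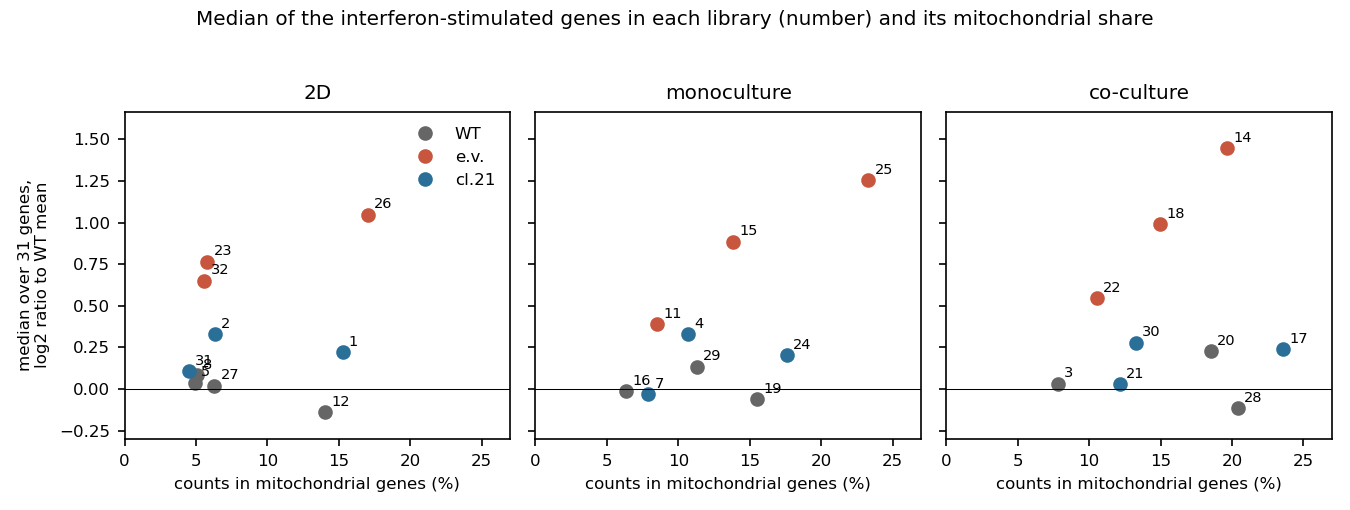
For each library (number) the median over 31 interferon-stimulated genes of the log2 ratio to the WT mean of the same culture (vertical axis) against the percent of its counts in mitochondrial genes (horizontal axis), by culture. The e.v. libraries lie between 0.39 and 1.45 and climb with the share in monoculture and co-culture, whereas WT libraries at 14.1% and 20.4% are the lowest of their group.

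The cultures were compared within each line. From 2D to monoculture, 1 gene rose in WT (IRF1, background 6.19%), 4 in e.v. (IRF1, HERC5, PSMB9 and IFITM2, background 10.3%) and 2 in cl.21 (IRF1 and PSMB9, background 10.1%), and none fell (8.59%, 11.3% and 10.0% of all genes in WT, e.v. and cl.21). The share of the set called higher in e.v. was near that of all genes, and leaving out 1 library gave 2 (without library 15) to 9 (without library 11). PSMB9 rose by 1.87 in e.v. and 1.98 in cl.21 on the log2 scale (adjusted p = 0.00785 and 0.00192). With F. prausnitzii against monoculture, no gene of the set and none of the 12849 genes tested passed in any line in edgeR (background 0.0%). No member reached an unadjusted p under 0.05 in any line, and DESeq2 called none. Over all genes 555, 791 and 908 reached an unadjusted p under 0.05 in WT, e.v. and cl.21. The differences between HoxBan and 2D and between co-culture and monoculture, for e.v. against WT and for cl.21 against e.v., passed for none of the 38 genes and none of all genes tested in edgeR (background 0.0%). DESeq2 called no member in these 4 tests, no member reached an unadjusted p under 0.05 in edgeR, and over all genes 725, 115, 271 and 169 did. Without the filter on low counts 1 member passed for e.v. against WT between HoxBan and 2D. The larger fold changes in HoxBan are therefore not shown to differ from those in 2D.

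Other genes of the pathway were counted from lists. The 11 ligands had 52 counts in 32 libraries with 8 of 11 at 0 (IFNB1, IFNA1, IFNA2, IFNA5, IFNE, IFNK, IFNW1 and IFNG), and none was tested. None of 6 receptor chains passed in e.v. over WT, and IFNAR1, a chain of the type I receptor, was lower in cl.21 than in WT in monoculture (log2 fold change -0.67, SE 0.18, adjusted p = 0.045), a call lost when any 1 was left out of 16 libraries. STAT3, a transducer of cytokine signals, rose in e.v. over WT in co-culture (log2 fold change 0.76, SE 0.18, adjusted p = 0.0267), a call lost when any 1 was left out of 5 libraries (up to 0.102).

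Of 13 nucleic acid sensors and adaptors, 8 were tested, and 1, 1 and 2 rose in e.v. over WT (backgrounds 0.809%, 0.802% and 1.11%). IFIH1, or MDA5, a sensor of long double-stranded RNA, read 3.52, 3.33, 4.26 and 4.25 CPM in WT, 21.6, 17.2 and 12.2 in e.v. and 6.26, 8.01 and 4.34 in cl.21 in 2D. In monoculture IFIH1 read 2.91, 2.11 and 4.41 CPM in WT, 9.56, 12.5 and 22.0 in e.v. and 5.76, 3.16 and 5.30 in cl.21. In co-culture IFIH1 read 4.88, 8.41 and 3.69 CPM in WT, 22.9, 24.1 and 15.3 in e.v. and 7.08, 3.90 and 5.83 in cl.21. IFIH1 rose in e.v. over WT in 2D (log2 fold change 2.14, SE 0.31, adjusted p = 0.000337), monoculture (log2 fold change 2.20, SE 0.36, adjusted p = 0.00173) and co-culture (log2 fold change 1.89, SE 0.34, adjusted p = 0.00404), without dependence on a single library, and fell in cl.21 against e.v. in each culture (adjusted p = 0.0189, 0.0139 and 0.00404). The call in cl.21 against e.v. was lost when any 1 was left out of 4 libraries in 2D (up to 0.157) and 3 in monoculture (up to 0.137), and with only the groups compared IFIH1 did not pass in e.v. against WT in monoculture (0.103). In cl.21 against e.v. no other gene of this list passed. RIGI, the sensor of short RNA with a triphosphate end, rose in co-culture at the threshold (log2 fold change 1.49, SE 0.40, adjusted p = 0.0498) and lost the call when any 1 was left out of 22 libraries. Of 45 further interferon-stimulated genes, 24 were tested, of which 1, 1 and 1 rose in e.v. over WT and 1, 0 and 1 fell. The backgrounds were 0.809%, 0.802% and 1.11% higher and 0.467%, 0.296% and 0.693% lower. SP110, a nuclear body protein, was the gene that rose (log2 fold changes 1.94, 2.16 and 2.34; adjusted p = 0.0232, 0.0234 and 0.0102), and PARP11, a mono-ADP-ribosyltransferase, the gene that fell in 2D (log2 fold change -0.88, SE 0.22, adjusted p = 0.0444) and co-culture (log2 fold change -1.07, SE 0.26, adjusted p = 0.029). The PARP11 calls were lost when any 1 was left out of 16 libraries in 2D (up to 0.202) and 5 in co-culture (up to 0.138), and without the filter (0.105 and 0.0522), and those of SP110 when any 1 was left out of 5, 4 and 3 libraries (up to 0.202, 0.141 and 0.0799). Of 19 genes of MHC class I and its regulators, 15 were tested and TAP2, the other subunit of the peptide transporter, rose in e.v. over WT in co-culture (log2 fold change 0.78, SE 0.18, adjusted p = 0.025), a call lost when any 1 was left out of 4 libraries (up to 0.141), without the filter (0.132) and with only the groups compared (0.178), while TAPBP was lower in cl.21 than in e.v. in monoculture (log2 fold change -0.75, SE 0.16, adjusted p = 0.0172), a call lost when any 1 was left out of 3 libraries (up to 0.0942) and without the filter (0.0679). None of 9 negative regulators passed a comparison of lines, and of 10 MHC class II genes 1 (CD74) was tested and did not pass.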

How the data were processed

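RNA of Caco-2 cells was sequenced by a 3′ method (QuantSeq), and the authors deposited a table of raw read counts per gene for 32 libraries. The submitters' processing notes name GRCh38; aligner, counter, annotation and strand setting: not given in the sources used here. Gene names were matched to Ensembl identifiers, and coordinates came from GENCODE release 29. The 28 libraries of 9 groups (3 lines in 3 cultures) were fitted together in edgeR 4.0.16 with TMM scaling, filterByExpr and the quasi-likelihood test, two-sided, with Benjamini-Hochberg adjustment over 12849 genes (19 residual degrees of freedom). Levels are CPM with TMM scaling over 32 libraries, and spreads are on log2(CPM + 1). Depth was 4144373 to 6686797 counts per library. Ratios with 1 to 3 counts in a group carry exact 95% intervals on pooled counts, which cover counting error only and not the spread between libraries. Alternatives were RLE size factors, no filter, the mitochondrial share as a covariate, only the groups compared, DESeq2 1.42.0 and leaving out each library. The script was tested on simulated data. The members and gene lists were chosen with earlier results of these data known. Values in every library are given for up to 4 tested genes of each role with the smallest adjusted p in e.v. against WT, and for genes called in cl.21 against WT. The 4 WT libraries with stool, inulin or mucin, 1 per condition, entered no test. Some items of the lists are not reported here.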

Additional observations from a re-analysis of the deposited data

Results flagged for a closer look

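Among the 38 tested genes, PARP12 at 6.12 CPM and PLSCR1 at 55.1 CPM had 1 library of WT in 2D apart from the other 3 by Dixon's criterion (0.829 for 4 samples). OAS2 at 0.185 CPM also met it, but this is 1 count against 0 in the other libraries, for which the criterion is always met. Chance flags about 1 in 20 groups.

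In 4 single WT libraries outside the comparisons, many of the 38 genes lay above all 3 WT monoculture libraries. There were 14 in the library with stool and inulin medium (where 23.9% of all genes did so), 20 with stool and mucin medium (20.7%), 23 with inulin medium alone (25.0%) and 13 with mucin medium alone (23.5%). All 4 libraries lay above for 9 genes, OAS1, MX1, IFITM3, BST2, ISG15, PSMB9, IFI6, IFI27 and LGALS3BP, where 6.72% of all genes did. Each condition has 1 library, so these differences have no replicate check.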

How the results depend on the processing

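No paired analysis was possible because the groups share no replicate number. No gene result reversed under any alternative. RLE size factors left every count of called genes within 1.5 times its value. Without the filter on low counts, cl.21 against e.v. gave 12, 18 and 18 lower genes in 2D, monoculture and co-culture; cl.21 against WT gave 2, 4 and 2 higher and 1, 2 and 2 lower; monoculture against 2D gave 2, 11 and 5 higher in WT, e.v. and cl.21 and 1 and 2 lower in WT and cl.21; and 1 gene differed between HoxBan and 2D in e.v. against WT. With only the groups compared, e.v. against WT gave 3 in monoculture and 8 in co-culture; cl.21 against e.v. gave 10 in 2D and 1 in monoculture; cl.21 against WT gave 0 higher in 2D and monoculture, 1 lower in 2D and 0 lower in monoculture; and monoculture against 2D gave 2 higher in e.v., 4 higher in cl.21, and 1 lower in WT and in cl.21. With the mitochondrial share as a covariate, cl.21 against e.v. gave 18 lower in co-culture, cl.21 against WT gave 2 lower in monoculture and 1 lower in co-culture, and monoculture against 2D gave 2 higher and 1 lower in WT and 2 lower in cl.21. DESeq2 gave 2 lower genes in cl.21 against WT in monoculture and in co-culture, and 2 higher from 2D to monoculture in WT. The cause was not tested. Shares of all genes called are not given here for these fits or for those that leave out 1 library.

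Leaving out each library in turn, where 1 library could leave a group with 2, e.v. against WT gave 4 to 16, 4 to 22 and 6 to 17 higher genes in 2D, monoculture and co-culture, and cl.21 against e.v. gave 2 to 7, 1 to 16 and 2 to 14 lower. In cl.21 against WT the higher genes numbered 0 to 1 in 2D and 0 to 2 in monoculture, and the lower 0 to 1 in monoculture and in co-culture. From 2D to monoculture the higher genes numbered 0 to 2 in WT, 2 to 9 in e.v. and 2 to 3 in cl.21, and the lower 0 to 1 in WT and in cl.21. In e.v. against WT, 11 calls in 2D were lost without library 26, 10 in monoculture without library 25 and without WT library 19, and 9 in co-culture without library 14. Ratios that rest on 1 count, such as those of MX1 in cl.21 and OAS2 in WT, have wide counting intervals.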
